A study of Homo sapiens with 74 samples.

Results

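The 100 kb bins of human chromosome 6 were examined for contact with the nuclear lamina in HEK293T cells, an established line from embryonic kidney that carries the SV40 large T antigen. The members are all bins of chromosome 6 in the deposited bin table, 1708 of its 28163 autosomal bins. Of these, 90 bins lie in the region from 25.0 to 34.0 Mb that holds the histone gene clusters and the major histocompatibility complex (MHC), and 1618 lie elsewhere on the chromosome.

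The series has 74 samples in 13 groups, all HEK293T, with every construct delivered by transient transfection and no clonal line. The labels describe treatment with Shield-1 for 20 hours, in protocol text that every sample shares, those labelled untreated included. The bulk lamina map has 2 libraries of DamV133A-LMNB1 and 2 of DamV133A. A comparison of Dam variants has 2 libraries each of DamV133A, DamV133A-LMNB1, DamWT and DamWT-LMNB1. Single cells from a microfluidic device form 3 groups: 15 cells of batch 1 with DamV133A-LMNB1 and m6A-Tracer, 3 cells of batch 1 with DamV133A and m6A-Tracer (here called Dam-only cells), and 36 cells of batch 2 with DamV133A-tdTomato-LMNB1 and m6A-Tracer-NES. RNA was sequenced from polyA RNA in 8 libraries, 2 each of cells with DamV133A-LMNB1, DamV133A or m6A-Tracer, or labelled untreated.

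DNA adenine methyltransferase identification (DamID) uses the bacterial enzyme Dam, which methylates the adenine of GATC, a motif that reads the same on both strands. When Dam is fused to lamin B1 (LMNB1), a filament protein of the lamina that lines the inner face of the nuclear envelope, DNA that comes near the lamina is methylated, and DpnI then cuts it. Long stretches with raised methylation are called lamina-associated domains (LADs) and are known as gene-poor, mostly silent chromatin. The stretches between them are called inter-LADs (iLADs) and hold most active genes. V133A is a substitution in Dam, and m6A-Tracer is a fluorescent protein that binds methylated GATC. The MHC holds the class I and class II genes, whose products present peptides to T cells, and, between them, the class III genes of complement, cytokines and heat shock proteins. The histone clusters just before it hold most of the replication-dependent histone genes of the genome.

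The sequences of 5 promoters show what the assay can read in bins at different positions of the map. Each is the stretch of 250 bases before the gene's start, from RefSeq (GRCh38.p14), read 5′ to 3′ along the gene's strand, with every GATC in capitals. They stand for a histone gene, an olfactory receptor gene in a LAD bin of the region, the gene of the region's lowest bin, a gene of the bin with the largest difference between the Dam variants, and a gene of a long LAD.
H1-3 (chr6:26234988-26235237, minus strand): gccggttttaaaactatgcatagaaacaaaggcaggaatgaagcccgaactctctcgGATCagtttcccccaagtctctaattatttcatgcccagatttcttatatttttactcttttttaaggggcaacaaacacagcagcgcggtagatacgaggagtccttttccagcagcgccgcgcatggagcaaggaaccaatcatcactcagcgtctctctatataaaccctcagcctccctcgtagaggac
OR5V1 (chr6:29368866-29369115, minus strand): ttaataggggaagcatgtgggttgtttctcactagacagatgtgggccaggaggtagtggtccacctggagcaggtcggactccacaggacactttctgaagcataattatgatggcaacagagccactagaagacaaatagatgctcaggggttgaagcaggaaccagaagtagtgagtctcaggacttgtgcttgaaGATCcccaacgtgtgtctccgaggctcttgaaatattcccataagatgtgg
HLA-F (chr6:29723184-29723433, plus strand): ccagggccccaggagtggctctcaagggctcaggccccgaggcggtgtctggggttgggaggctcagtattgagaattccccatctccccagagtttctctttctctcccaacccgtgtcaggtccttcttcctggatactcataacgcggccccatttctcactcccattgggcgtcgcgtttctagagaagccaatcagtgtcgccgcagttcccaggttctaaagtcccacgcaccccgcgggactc
MUC22 (chr6:31010224-31010473, plus strand): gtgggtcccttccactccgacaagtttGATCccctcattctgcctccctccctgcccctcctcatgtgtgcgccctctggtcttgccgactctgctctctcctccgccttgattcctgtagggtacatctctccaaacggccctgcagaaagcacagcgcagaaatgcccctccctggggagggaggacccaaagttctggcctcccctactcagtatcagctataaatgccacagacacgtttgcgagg
LAMA2 (chr6:128882888-128883137, plus strand): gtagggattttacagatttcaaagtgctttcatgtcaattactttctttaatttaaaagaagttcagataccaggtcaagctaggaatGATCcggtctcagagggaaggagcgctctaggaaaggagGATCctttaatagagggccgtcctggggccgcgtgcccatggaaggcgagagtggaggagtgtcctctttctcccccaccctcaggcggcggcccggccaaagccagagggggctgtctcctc
The HLA-F promoter has no GATC and lies inside a single DpnI fragment of 1530 bases, which had 0 counts in all 8 libraries of the Dam variants. The H1-3 promoter has 1 GATC, 193 bases before the start, and the fragments on both sides had 0 counts. The OR5V1 promoter has 1 GATC at 51 bases before the start. The 576-base fragment beside it had 42 counts, 30 and 0 in DamV133A, 4 and 0 in DamV133A-LMNB1, 8 and 0 in DamWT, and 0 in both DamWT-LMNB1 libraries. MUC22 has 1 GATC at 223 bases, with 13 counts on the 833-base fragment beside it, all in DamV133A replicate 1. LAMA2 has 2, at 162 and 123 bases, and the 206-base fragment that follows the second had 36 and 8 counts in DamV133A-LMNB1, 58 and 4 in DamWT-LMNB1, 2 and 0 in DamV133A and 0 in both DamWT libraries. A single fragment therefore holds few counts, and the values that follow are over bins.
Of all 35116 promoters of this length in the table, 35.8% hold a GATC. The share was 35.4% on chromosome 6, 39.2% in its LAD bins, 34.8% in its iLAD bins and 34.1% in the region, and all 923 GATC found in promoters of chromosome 6 fell on a fragment border of the variant table. The bins of the region held a median of 270.5 DpnI fragments against 237.0 in the rest of the chromosome.

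Depth differed between the kinds of library. Total counts ranged from 402171358 to 524019579 in the 4 bulk libraries, from 3162041 to 10666805 in the 8 variant libraries and from 39690886 to 51455298 in the RNA libraries. The median was 94331 unique fragments per cell in batch 1 (9526 to 348793) and 110236 in batch 2 (29323 to 283304), and the 3 Dam-only cells had 73811, 92707 and 242303. The cells' RNA carried the markers of the line, with VIM at 586 to 791 and KRT18 at 57.4 to 75.1 CPM (counts scaled to a common library total), while PTPRC stayed at or under 0.857 and CD3E at or under 0.101 CPM. Of the fibroblast collagens, COL1A1 was at 24.3 to 28.9 and COL1A2 at 0.205 to 0.534 CPM. LMNB1 RNA was at 2528 and 1981 CPM with the fusion. It was at 258 and 262 with DamV133A alone, 255 and 262 with m6A-Tracer, and 744 and 746 in untreated cells. Nothing in the labels ties the replicates to separate cultures, so p-values measure only the spread between these libraries, which may be technical.

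In bulk, chromosome 6 was divided between a lamina-poor short arm and a lamina-rich long arm, and the histone and MHC region was lamina-poor along most of its length. A bin counted as LAD where counts were higher with DamV133A-LMNB1 than with DamV133A (edgeR quasi-likelihood test, Benjamini-Hochberg adjusted p under 0.05) and as iLAD where they were lower. Over all autosomes 35.2% of tested bins were called higher and 36.2% lower. On chromosome 6 there were 845 LAD bins (49.5%), 463 iLAD bins (27.1%) and 400 that passed neither way (23.4%). The median log2 fold change over the chromosome was 0.43. On the long arm, from 59.0 Mb on, 721 of 1118 bins were LAD (64.5%) and 164 were iLAD (14.7%). On the short arm outside the region, 122 of 500 were LAD (24.4%) and 232 were iLAD (46.4%). Scaling by library totals lowered the median of all bins from -0.06 to -0.32. It gave 746 LAD and 615 iLAD bins on chromosome 6, so that LAD bins made up 54.8% of the called bins in place of 64.6%. Without DamV133A replicate 2 the count of iLAD bins was 307.

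In the histone and MHC region 67 of 90 bins were iLAD (74.4%), 2 were LAD and 21 passed neither way. The median log2 fold change was -0.86, with a range from -1.81 to 0.76, against 0.56 in the rest of the chromosome. Outside the region 843 of 1618 bins were LAD (52.1%) and 396 were iLAD (24.5%). The MHC alone, from 28500001 to 33500000, had 43 iLAD bins of 50 and a median of -1.0. The count of iLAD bins in the region was 42 without DamV133A replicate 2, 55 without DamV133A replicate 1 and 74 with library totals. The median level of the untethered enzyme in the region, 40.5 CPM, was close to the 38.1 CPM in the rest. Of the bins that the authors marked as controls, none of the 119 LAD marks of chromosome 6 and 10 of its 55 iLAD marks lay in the region.

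**Figure D1:**
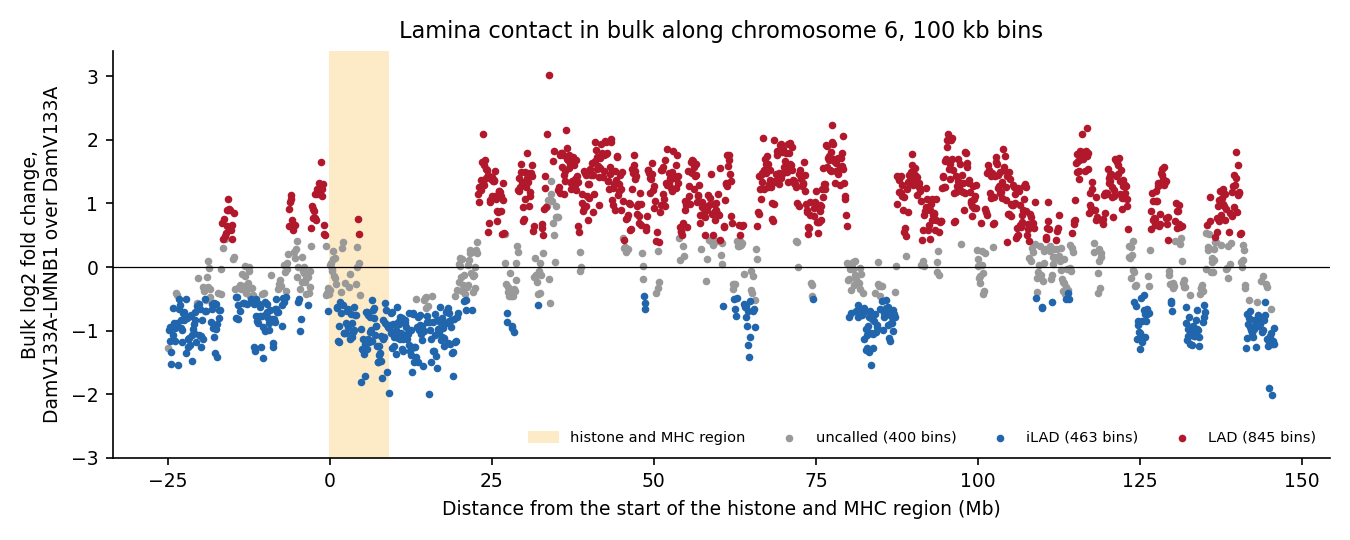
Bulk log2 fold change of DamV133A-LMNB1 over DamV133A for the 1708 bins of chromosome 6 (y axis), by distance in Mb from the start of the histone and MHC region (x axis, region shaded). Points are bins, coloured as LAD (845), iLAD (463) or neither (400), and the shaded region lies mostly under 0 with 67 of its 90 bins iLAD.

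The 4 bulk libraries gave the same picture library by library. Per library, mean counts per bin in the region relative to the rest of chromosome 6 stood, on the log2 scale, at -1.07 and -1.10 with DamV133A-LMNB1, and 0.07 and 0.11 with DamV133A. Both fusion libraries were below both Dam libraries. The difference was -1.18 ± 0.036 (SD of the difference, n = 2 and 2), so the ratio of fusion to Dam counts was 2.26-fold lower in the region. Against the short arm outside the region alone the difference was -0.55. With 2 against 2 libraries a two-sided exact permutation test cannot go below p = 0.333, which is the value it gave. Against iLAD bins elsewhere on the chromosome the difference was 0.22 with the opposite sign, so relative to the Dam libraries the region was not below other iLAD bins, a class that is itself defined by this contrast. Their median log2 fold change was -0.87, against -0.86 in the region.

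The region is gene-rich. It holds 269 protein-coding genes placed by their midpoint, 29.9 per Mb, against 4.78 per Mb in the rest of the chromosome, 9.52 in iLAD bins outside the region and 2.22 in LAD bins outside it. Bins with 3 or more genes were much alike inside and outside, with 32 of 40 iLAD and a median of -0.90 in the region, and 31 of 41 iLAD and a median of -0.86 elsewhere. Bins without a gene were not. In the region 0 of 19 such bins were LAD and 11 were iLAD, with a median of -0.64, whereas elsewhere 685 of 1059 were LAD (64.7%), with a median of 0.95. Bins with 1 or 2 genes held 0 LAD bins of 31 in the region and 155 of 518 elsewhere (29.9%). These counts are a description of neighbouring bins, which are not independent of each other.

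The lamina-poor stretch that starts in the MHC ran on well past it. The longest run of consecutive iLAD bins of the chromosome reached from 29700001 to 38300000, 86 bins with 212 genes, from HLA-F through the class I, III and II genes and on past HMGA1 and CDKN1A. Its median log2 fold change was -1.08. The next longest were 40800001 to 44200000 (3.4 Mb, 74 genes, median -0.97), with NFYA, a subunit of the CCAAT-binding factor NF-Y, the TREM receptors of myeloid cells and the cyclin gene CCND3, and 1400001 to 4500000 (3.1 Mb, median -0.87), with FOXC1 and the SERPINB genes of protease inhibitors. Both others lay on the long arm, at 110200001 to 112200000 (2.0 Mb, median -0.75), with FYN and REV3L, and at 107300001 to 109100000 (1.8 Mb, median -1.01), with FOXO3. Chromosome 6 had 78 iLAD runs with a median length of 0.25 Mb, of which 14 were 1 Mb or longer.

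Of the 5 longest LAD runs 4 were on the long arm, and 3 of these held few genes. The first, 63800001 to 70200000, spanned 6.4 Mb with 6 genes, among them EYS, a retinal gene, ADGRB3, an adhesion receptor of neurons, and COL19A1, a collagen, and its median was 1.44. The runs 90900001 to 96800000 (5.9 Mb, median 1.48), with the ephrin receptor gene EPHA7, and 99600001 to 104800000 (5.2 Mb, median 1.48), with the glutamate receptor gene GRIK2 and the transcription factor gene SIM1, held 6 genes each. The run from 127400001 to 132800000 (5.4 Mb, median 1.12) was richer, with 32 genes that include PTPRK, LAMA2 and trace amine receptor genes. The fifth, 47800001 to 51900000 (4.1 Mb, median 1.20), lay on the short arm with 18 genes, among them the CRISP genes of sperm proteins and beta-defensin genes. The nearest LAD run of 1 Mb or more before the region, 22100001 to 24300000 (2.2 Mb, median 1.13), held the prolactin gene PRL. In all there were 69 LAD runs, with a median length of 0.4 Mb, and 25 were 1 Mb or longer.

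The 5 highest bins held no gene, nor did the bins at 40300001 and 169800001 among the 5 lowest. Of all bins, 1059 of 1618 outside the region and 19 of 90 inside it held none. The highest log2 fold change, 3.02 ± 0.71 (SE), was in the bin 58800001 to 58900000, where the level was only 0.581 and 0.707 CPM with the fusion and 0.0566 and 0.102 without it, and it missed the threshold without DamV133A-LMNB1 replicate 2 (adjusted p = 0.0594, edgeR). Better covered bins reached 2.23 ± 0.17 at 102400001 and 2.19 ± 0.17 at 141800001. The lowest bin, 170300001 to 170400000 with FAM120B, had 11.3 and 17.9 CPM with the fusion and 65.0 and 53.0 without it, a log2 fold change of -2.01 ± 0.24. A bin with no gene at 40300001 (-2.00 ± 0.31) and the bin of GRM4, a glutamate receptor gene, at 34000001 (-1.98 ± 0.34) came next, the second of them just past the end of the region.

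Within the region the map changed from gene family to gene family. Its first 1.0 Mb, which holds SLC17 genes of phosphate and urate transporters, was neither LAD nor iLAD: all 10 bins missed the threshold, with a median of -0.0020. Contact then fell across the histone genes. The 3 bins of the first histone cluster (26000001 to 26300000, 33 genes) were all iLAD, at -0.65 ± 0.21, -0.63 ± 0.19 and -1.17 ± 0.20. The bin at 26200001, which holds H1-3, a linker histone gene, and H2BC8, H3C6 and H4C5 among core histone genes, had 23.9 and 28.8 CPM with the fusion and 53.3 and 64.9 without it. In the second histone interval, 27100001 to 27900000, 7 of 8 bins were iLAD. Its histone genes lay only in the bins at 27100001 (-1.03 ± 0.19) and 27800001 (-0.65 ± 0.20), both iLAD, and the bins between hold other genes or none. Of the 55 histone genes listed, which share 6 bins, 53 lay in iLAD bins, and H2AC1 and H2BC1, the testis-specific pair, lay in a bin at -0.18 ± 0.20 that passed neither way. The bin of H1-1 at 26000001 missed the threshold without DamV133A replicate 1 (adjusted p = 0.116).

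Between and beside the histone genes, families of other kinds were iLAD as well. The 3 bins of the butyrophilin genes, membrane proteins related to the B7 family that regulate T cells, were iLAD with a median of -0.92, although that of BTN1A1 (-0.55 ± 0.20) missed the threshold without DamV133A replicate 1 (adjusted p = 0.204) or DamV133A-LMNB1 replicate 2 (adjusted p = 0.0737). The gene-poor gap that follows, from 26600001 to 27100000, had 2 iLAD bins of 5. In the zinc finger interval, 27900001 to 29000000, 9 of 11 bins were iLAD, with a median of -0.76. Not all of its bins hold zinc finger genes: others hold OR2B2 and OR2B6, TRIM27 or no gene. Among its zinc finger genes ZKSCAN8 and ZSCAN16 lay at -1.13 ± 0.21 and ZSCAN12 at -1.10 ± 0.21. ZNF165 lay in a bin at -0.11 ± 0.20 that passed neither way.

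The olfactory receptor genes, which encode odorant receptors of the nasal epithelium, were the exception, and both LAD bins of the region lay among them. The bin 29300001 to 29400000, with OR14J1, OR5V1, OR12D3 and OR12D2, had 70.4 and 58.7 CPM in the fusion libraries against 41.0 and 35.2 in the Dam libraries. The log2 fold change was 0.76 ± 0.18 (adjusted p = 0.00089, edgeR). The bin 29400001 to 29500000, with OR11A1, OR10C1, OR2H1 and MAS1L, had 42.4 and 47.3 CPM against 30.8 and 31.5, a log2 fold change of 0.52 ± 0.20 (adjusted p = 0.024). This second call was lost with library totals (0.26, adjusted p = 0.239) and without DamV133A-LMNB1 replicate 2 (adjusted p = 0.0954), DamV133A replicate 1 (adjusted p = 0.106) or DamV133A replicate 2 (adjusted p = 0.0839). The other 4 bins of the interval passed neither way. Of 15 olfactory receptor genes placed, 7 lay in a LAD bin, 8 passed neither way and none lay in an iLAD bin.

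The map turned just past the last olfactory receptor genes. The bin 29600001 to 29700000, with GABBR1, a GABA receptor gene, and MOG, a myelin gene, stood at -0.43 ± 0.22 and passed neither way. The next bin, with HLA-F, was the lowest of the region: 9.20 and 7.13 CPM with the fusion against 28.2 and 29.0 without it, a log2 fold change of -1.81 ± 0.28 (adjusted p = 8.8e-06, edgeR). From there to 34000000 every bin was iLAD.
In the class I interval, 29600001 to 31500000, 18 of 19 bins were iLAD, with a median of -1.14. HLA-E, a ligand of natural killer cell receptors, lay in a bin at -1.71 ± 0.25, with 12.8 and 10.2 CPM against 34.6 and 41.1. HLA-C lay at -0.79 ± 0.23 and HLA-B at -0.99 ± 0.27. Without DamV133A replicate 2 the bins of HLA-B (adjusted p = 0.0655) and HLA-C (adjusted p = 0.142) missed the threshold.

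The class III and class II genes were iLAD without exception. All 8 class III bins, from 31500001 to 32300000, were iLAD with a median of -0.86, and they hold the complement genes C2, CFB, C4A and C4B, the cytokine genes TNF, LTA and LTB, and HSPA1A and HSPA1B of the heat shock proteins. The class II interval, 32300001 to 33100000, had the lowest median of the region, -1.44, over 8 iLAD bins of 8. The bin of HLA-DRA, which encodes the alpha chain shared by DR molecules, had 17.6 and 15.2 CPM with the fusion against 46.4 and 46.2, a log2 fold change of -1.50 ± 0.22. The bin of HLA-DOA, HLA-DPA1 and HLA-DPB1 had 11.7 and 12.4 CPM against 44.2 and 36.7, at -1.75 ± 0.24. The bin of TAP1, TAP2, PSMB8 and PSMB9, which encode the peptide transporter and proteasome subunits, lay at -1.48 ± 0.25. In all these bins both fusion libraries were below both Dam libraries, which adds nothing to the calls, since those were made from the same libraries. All 9 bins past class II were iLAD with a median of -0.92. C4A and C4B, HLA-DRB5 and HLA-DRB1, HSPA1A and HSPA1B and many histone genes are near-identical copies, and how reads with more than 1 match were placed is not stated in the labels or file headers.

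**Figure D2:**
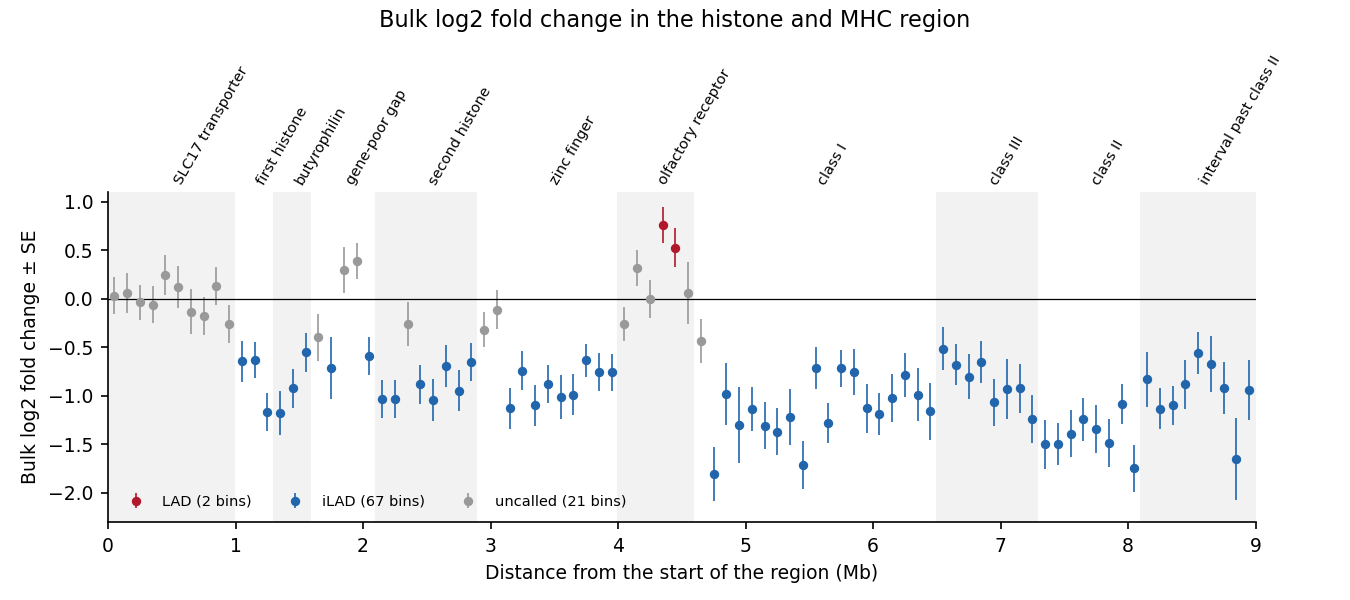
Bulk log2 fold change with its standard error (y axis) for the 90 bins of the histone and MHC region, by distance in Mb from its start (x axis), with the gene intervals as shaded bands. Only 2 bins, in the olfactory receptor interval, are LAD, the class II interval has a median of -1.44, and the first 10 bins scatter about 0.

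Of 12 genes placed from the CRISP, beta-defensin and glutathione transferase group of 6p12, 7 were in LAD bins, among them CRISP1 at 1.39 ± 0.21 and DEFB110 at 1.42 ± 0.20, and the 5 glutathione transferase genes passed neither way. All 6 trace amine receptor genes were in LAD bins, at 0.51 ± 0.16 and 0.60 ± 0.17. The second of these bins, with TAAR1, TAAR2 and TAAR5, missed the threshold with library totals (0.34, adjusted p = 0.0720). Of 18 genes in the list of neural and adhesion genes, 16 were LAD, with GRIK2 at 1.57 ± 0.20, KHDRBS2 at 1.55 ± 0.23 and ADGRB3 at 1.51 ± 0.18. In the same list GABRR1 and GABRR2, subunits of a GABA receptor, shared an iLAD bin at -0.78 ± 0.26.
Over the whole chromosome iLAD bins held 610 of 1042 genes and LAD bins 195. Regulators of growth and the cell cycle were near these shares, with 10 of 18 in iLAD bins, such as E2F3 (-1.0 ± 0.19), HMGA1 (-0.91 ± 0.19) and CDKN1A (-0.88 ± 0.23), 5 in bins that passed neither way, and CENPW, TTK and ESR1 in LAD bins. CENPW, a centromere protein gene, lay in a bin at 1.48 ± 0.14. Of 18 developmental transcription factor genes 4 were LAD (TFAP2B, POU3F2, SIM1 and OLIG3), 5 were iLAD, such as IRF4 at -1.34 ± 0.25, and 9 passed neither way.

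RNA was present for genes of every class, in bulk libraries that cannot tell fewer cells with a transcript from less RNA per cell. With RNA taken as present at 1 CPM or more, summed over the rows of a symbol, 51.1% ± 0.38 (SD, n = 2 untreated libraries) of 185 matched genes in LAD bins had RNA, against 69.9% ± 0.37 of 579 in iLAD bins and 67.1% ± 0.21 of all 989 on chromosome 6. In the region the share was 55.2% ± 0.54 of 261. Its iLAD bins had RNA for 60.8% ± 0.62 of 227 genes, fewer than the 75.7% ± 0.20 of 352 genes in iLAD bins elsewhere, a gap wider than the range over all 8 RNA libraries (60.4 to 64.3% against 75.6 to 77.8%). Lists differed within it. Of 15 olfactory receptor genes 0 reached 1 CPM in both untreated libraries. Of 53 histone genes with an RNA row 14 did, in libraries of polyA RNA, whereas most replication-dependent histone messages end in a stem-loop without a poly(A) tail. Of the class I list 7 of 8 did, with HLA-C at 322 and 318 CPM and HLA-G at 0. Of the class II and antigen processing list 12 of 19 did, with BRD2, a chromatin reader, at 672 and 671 CPM and TAP1 at 24.6 and 24.2, while HLA-DRA was at 0.11 and 0.10. In the class III list 12 of 20 did, with DDX39B, an RNA helicase, at 485 and 478 and TNF at 0. Genes in LAD bins could carry RNA, as CENPW at 37.4 and 38.3 CPM, TTK at 78.7 and 79.9 and PTPRK at 43.7 and 44.8 did. In the region 156 genes were listed in more than 1 RNA row, and their levels may be split or shared.

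In the libraries of the Dam variants, the region was again low with both fusions, and the fall was larger with V133A than with wild-type Dam by more than the spread between libraries. On the same log2 scale, counts per bin in the region relative to the rest stood at -1.65 and -1.83 with DamV133A-LMNB1 against -0.07 and -0.08 with DamV133A, a difference of -1.67 ± 0.12 (SD, n = 2 and 2; 3.17-fold lower). With wild-type Dam it was -1.01 and -0.92 for DamWT-LMNB1 against -0.17 and -0.25 for DamWT, a difference of -0.76 ± 0.087 (1.69-fold lower). In both, the fusion libraries did not overlap the Dam libraries, and the exact permutation test gave its smallest value, p = 0.333. The V133A difference exceeded the wild-type difference by -0.91 ± 0.15. Against the short arm outside the region alone the differences were -0.90 with V133A and -0.40 with wild-type Dam, -0.50 apart, and on covered fragments the wild-type difference was -0.48. Permuting the fusion labels within each Dam variant gave an exact two-sided p = 0.333 over 36 arrangements. That test cannot decide whether the shifts differ, since swapping the labels of either variant alone reverses its shift and enlarges the difference. Permuting the variant labels within each fusion state, an alternative chosen after seeing the data, gave an exact p = 0.0556, the smallest it allows. With iLAD bins outside the region as the reference the V133A value was 0.32 and the wild-type value 0.012, so the region was not below other iLAD bins with either enzyme.

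**Figure D3:**
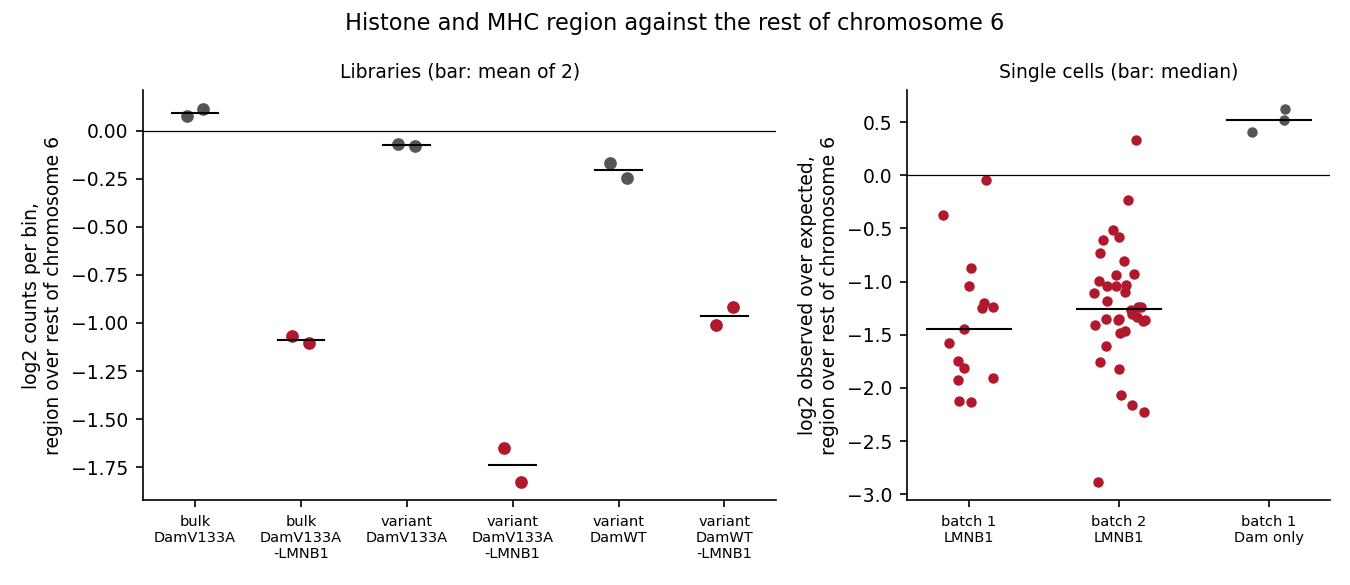
Left, log2 of mean counts per bin in the histone and MHC region over the rest of chromosome 6 for each of the 12 bulk and variant libraries (bars, mean of 2). Right, the same as observed over expected fragments for each of the 54 cells (bars, median); fusion libraries lie at -0.92 or lower and all but 1 fusion cell lies under 0.

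Bin by bin, 1691 bins of chromosome 6 were tested in the variant libraries. With V133A, 689 were higher with the fusion (27.0% of all bins were) and 332 lower (23.7% of all bins). The directions followed the bulk map. Of 841 bins that were LAD in bulk and outside the region, 665 were higher (79.1%) and 0 lower, and of 395 iLAD bins outside it 249 were lower (63.0%) and 0 higher. In the region 46 of 90 were lower (51.1%) and 0 higher, at a median of -1.46 on the log2 scale, and the count was 24 without DamV133A replicate 2, 27 without DamV133A replicate 1 and 61 with library totals. Library totals lowered the median of all bins from -0.10 to -0.50 and gave 504 higher and 498 lower bins on the chromosome, 50.3% higher in place of 67.5%. With DamV133A replicate 1 or 2 left out the lower bins of the chromosome numbered 171 and 176.
Within the region, 14 of 19 class I bins and 7 of 8 class II bins were lower, against 2 of 8 class III bins. On the log2 scale of counts per bin, the class III interval stood at -1.02 and -1.20 against the rest of the chromosome with DamV133A. With DamWT it stood at -1.03 and -1.17, and in bulk DamV133A at -0.26 and -0.15. The interval past class II stood at -0.89 and -0.83 with DamV133A and at -0.90 and -1.02 with DamWT, and 5 of its 9 bins were lower. Whether a low level of the untethered enzyme bears on these counts was not tested. The HLA-F bin was lower by a log2 fold change of -4.16 ± 0.80 with V133A (adjusted p = 0.0011, edgeR). Neither olfactory receptor bin that was LAD in bulk passed with V133A, at 0.77 ± 0.47 (adjusted p = 0.18) and -0.60 ± 0.34 (adjusted p = 0.15), though with library totals the second passed as lower (-1.0, adjusted p = 0.0268).

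With wild-type Dam fewer bins passed. On the chromosome 61 bins were higher with DamWT-LMNB1 than with DamWT (2.42% of all bins) and 3 lower (0.212% of all bins). All 61 were LAD in bulk and outside the region, and the medians pointed the same way as with V133A, 0.66 in LAD bins, -0.45 in iLAD bins outside the region and -0.44 in the region, where 0 bins passed. These counts moved with single libraries: without either DamWT replicate or without DamWT-LMNB1 replicate 1 no bin passed, without DamWT-LMNB1 replicate 2 there were 165 higher and 41 lower, without either DamV133A replicate 8 higher and 0 lower, and without DamV133A-LMNB1 replicate 1 or 2 there were 15 or 14 lower. DESeq2 called 298 higher and 47 lower, 8 of them lower in the region. The 2 DamWT-LMNB1 libraries had 10666805 and 4923830 counts.
The untethered enzymes, DamV133A against DamWT, gave 0 calls on chromosome 6 with edgeR (0% of all bins). An unadjusted p under 0.05 was found for 101 of its 1691 bins, against 1447 of 28733 over all tested bins. DESeq2 called 3 higher and 17 lower on the chromosome, against 24 and 153 over all tested bins.

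The fusion effect itself differed between the Dam variants in 12 bins of chromosome 6, 3 with a larger rise (0.136% of all bins were called higher) and 9 with a larger fall with V133A (0.358% called lower). All 9 were iLAD in bulk and all 3 LAD. Counts were very low with DamV133A-LMNB1 in 4 of them. The bin of MUC22, a mucin gene of the MHC, had 4 and 3 counts with DamV133A-LMNB1 against 256 and 212 with DamV133A, and 231 and 80 with DamWT-LMNB1 against 106 and 79 with DamWT. The bin at 41000001 with NFYA had 3 and 2 against 226 and 172, the gene-free bin at 43800001 had 6 and 2 against 189 and 120, and the gene-free bin at 33800001, also in the region, had 2 and 6 against 185 and 91. The bins at 43800001 and 33800001 were outside the rule for named bins and were chosen after their values were seen. Fitted fold changes of bins with so few counts depend on the prior count of the fit, so the counts are the firmer values. The counts are not scaled to depth, which differed between the libraries. Scaled, the wild-type values of the MUC22 bin were 22.4 and 16.1 CPM with the fusion against 21.7 and 22.8 without it. Among better covered bins, that of SERPINB6, a protease inhibitor gene, had 86 and 58 counts with DamV133A-LMNB1 against 464 and 364 with DamV133A. With wild-type Dam it had 385 and 183 against 145 and 125, or 37.4 and 36.8 against 29.6 and 36.0 CPM when scaled. The log2 fold change with wild-type Dam was 0.18 ± 0.37 (adjusted p = 0.81, edgeR). In the LAD bin of CENPW counts were 1986 and 1894 against 408 and 286 with V133A and 1500 and 582 against 409 and 281 with wild-type Dam. Scaled, its wild-type values were 146 and 117 against 83.6 and 80.9 CPM. All 12 interaction calls were lost without either DamV133A replicate, either DamWT replicate or DamWT-LMNB1 replicate 1. There were more without DamV133A-LMNB1 replicate 1 (46 higher and 104 lower), DamV133A-LMNB1 replicate 2 (38 and 101) or DamWT-LMNB1 replicate 2 (27 and 33).

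**Figure D4:**
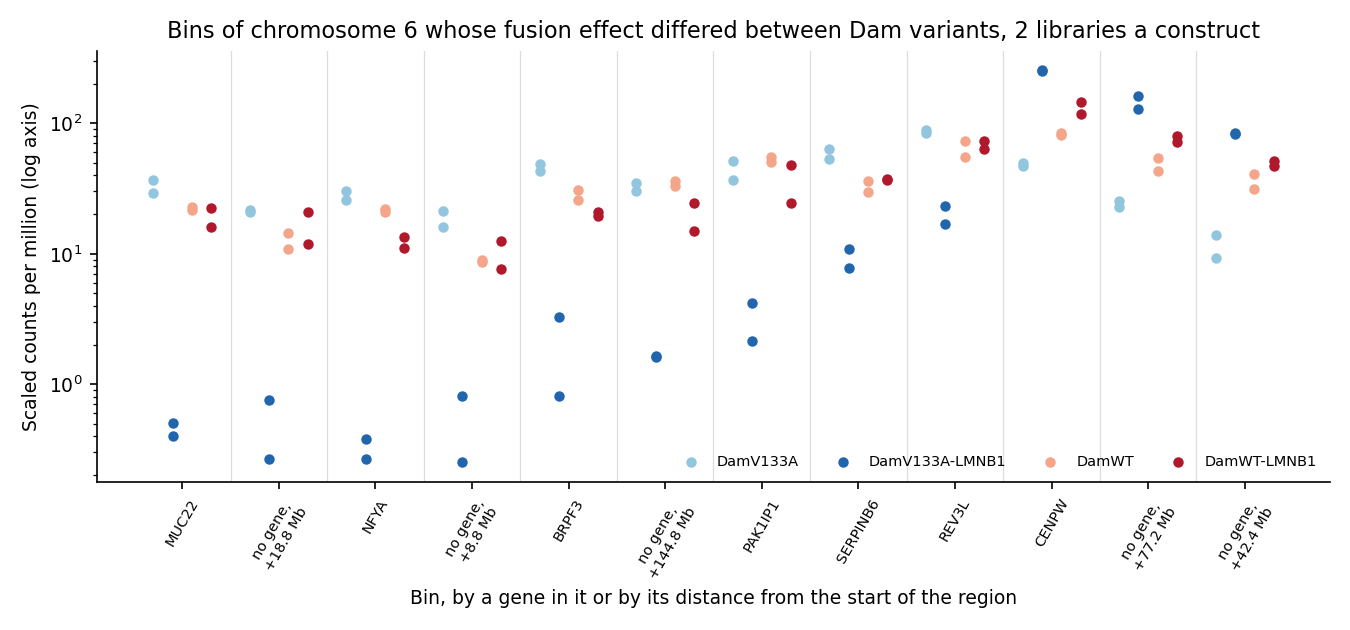
Scaled CPM (y axis, log axis) in the 8 variant libraries for the 12 bins whose fusion effect differed between V133A and wild-type Dam, named by a gene or by distance from the start of the region (x axis). In the MUC22 bin both DamV133A-LMNB1 libraries lie far below the other 6 libraries, while in the CENPW bin the fusion libraries of both variants lie above their Dam libraries.

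In single cells the region was low in nearly every cell that carried a fusion. For each cell, fragments in a set of bins were divided by those expected if the cell followed the summed bulk DamV133A libraries. The log2 ratio of this value in the region to that in the rest of chromosome 6 had a median of -1.45 in batch 1 (-2.13 to -0.04, under 0 in 15 of 15 cells) and -1.26 in batch 2 (-2.88 to 0.33, under 0 in 35 of 36). The 3 Dam-only cells were at 0.41, 0.52 and 0.62, above every fusion cell, and the bulk fusion libraries were at -1.18 on this scale. Against the short arm outside the region the medians were -0.87 in batch 1, -0.73 in batch 2 and 0.15 in Dam-only cells. No test was made, since cells are not replicates and no culture of origin is named for any cell. The highest cell of each batch also had the weakest contrast between LAD and iLAD bins of the chromosome, a log2 ratio of 0.31 in batch 1 and 0.09 in batch 2, where the medians were 2.35 and 1.79. Against iLAD bins elsewhere, cells showed no common direction, with medians of 0.18 (-1.06 to 1.07) and -0.04 (-0.78 to 0.88).
The region held a median of 164 fragments per cell in batch 1 (8 to 1464) and 198 in batch 2 (38 to 600). It made up a median of 2.13% and 2.43% of a cell's chromosome 6 fragments and 7.84% in Dam-only cells, where 5.61% was expected. All of chromosome 6 took 2.12 to 10.6% of a cell's fragments in batch 1 and 2.36 to 11.6% in batch 2, where 7.19% was expected, and what set this spread was not tested. Batches differed in construct, tracer and library kit at once, and these cannot be told apart.

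Contact per bin was counted where a cell's fragments equalled or exceeded the expected number. Averaged over bins, 58.6% of batch 1 cells and 61.2% of batch 2 cells contacted a LAD bin, against 13.4% and 15.2% for iLAD bins outside the region and 15.3% and 14.8% for bins of the region. In Dam-only cells these were 25.4%, 45.9% and 55.2%, so LAD bins were the lowest there. Over the whole region observed fragments reached the expected number in 1 of 15 cells of batch 1 (6.67%, exact Clopper-Pearson 95% interval 0.169 to 31.9%) and in 1 of 36 of batch 2 (2.78%, 0.0703 to 14.5%). Such intervals describe counting error alone.
Intervals that were low in bulk were contacted by few cells. The class II interval was contacted in 7.50% and 4.17% of cells per bin, and over its whole length 0 of 15 and 0 of 36 cells reached the expected number, which allows shares of up to 20.0% and 8.33%. In Dam-only cells the share per bin was 41.7%, but over the whole interval 0 of 3 reached the expected number either. The medians were 0.14 and 0.23 times the expected fragments in batches 1 and 2 and 0.71 in Dam-only cells. In fusion cells, the first histone cluster was at 13.3% and 8.33% per bin and the second histone interval at 6.67% and 11.5%. Class I was at 14.7% and 9.80% and class III at 15.0% and 11.1%. The SLC17 interval was higher, at 22.0% and 29.4%, and the olfactory receptor interval highest, at 37.8% and 31.9%. The pair of olfactory receptor bins that were LAD in bulk reached the expected number of fragments in 9 of 15 cells (60.0%, 32.3 to 83.7%) and in 10 of 36 (27.8%, 14.2 to 45.2%), and in 1 of the 3 Dam-only cells, with medians of 1.86, 0.73 and 0.72 times the expected fragments. Per bin, though, 66.7% of Dam-only cells contacted these bins against 53.3% and 30.6% of fusion cells, so the measures ordered the groups differently, with only 3 Dam-only cells behind them. At 0 to 37 fragments per cell in these bins, single values carry little weight.

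**Figure D5:**
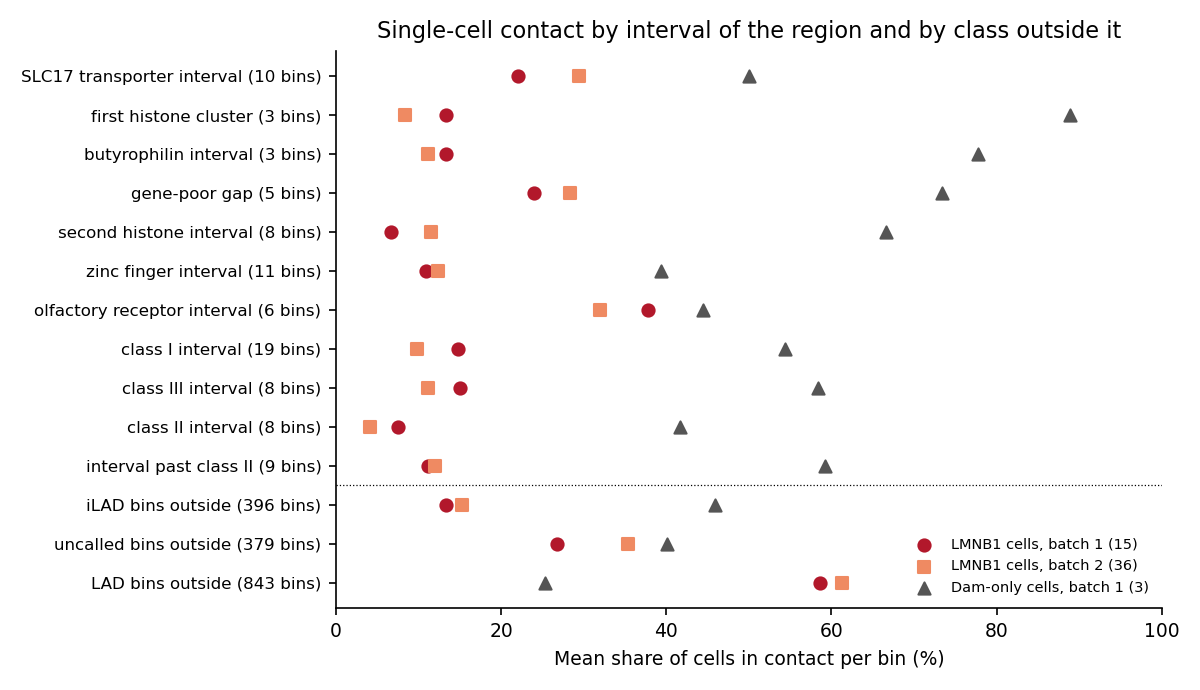
Mean share of cells in contact per bin in percent (x axis) for the 11 intervals of the histone and MHC region and for iLAD, uncalled and LAD bins outside it (y axis), in batch 1, batch 2 and Dam-only cells. In fusion cells the class II interval lies at 7.50 and 4.17%, the second histone interval at 6.67 and 11.5%, and LAD bins lie at 58.7 and 61.2%, while Dam-only cells lie at 25.3% in LAD bins.

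Long domains were contacted by most cells. Over the 6.4 Mb LAD with EYS and ADGRB3, observed fragments reached the expected number in 12 of 15 and 34 of 36 cells, with a median of 2.06 and 1.57 times the expected fragments, and in 0.67 times in Dam-only cells. The LAD with PTPRK, LAMA2 and the trace amine receptor genes was contacted less, at 1.12 and 1.16 times the expected fragments in 11 of 15 and 28 of 36 cells. The 8.6 Mb iLAD that starts at HLA-F was at 0.25 and 0.29 times, and reached 1 in 1 of 15 and 1 of 36 cells, while the Dam-only median was 1.21.
The bins contacted by most cells were all LAD in bulk and held no gene, as did 685 of the 843 LAD bins outside the region. In batch 1 those at 23200001, 77800001, 78600001, 81400001 and 112600001 were contacted by 93.3% of cells. In batch 2 the bins at 60600001 and 61000001 were contacted by 94.4%, and those at 23700001, 86300001 and 86400001 by 91.7%. In bulk DamV133A, which sets the expected number, the bins at 60600001, 61000001, 86300001 and 86400001 had 9.22 to 14.6 CPM. The median over chromosome 6 was 38.4 CPM, so fewer fragments were enough to count as contact in these bins. Contact shares rose with the bulk log2 fold change across the 1708 bins, with Pearson's r of 0.85 in batch 1 and 0.84 in batch 2, but only of 0.49 and 0.45 among the 845 LAD bins. These are descriptions over neighbouring bins that share cells and depth. The bulk DamV133A libraries also enter both measures, as the expected fragments and as the denominator of the fold change. Part of the correlation is therefore built in.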

How the data were processed

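The values were made by the authors before deposit, in 3 tables. The bin table holds the deposited unique-fragment count of each 100 kb bin for 54 cells and coverage counts for 4 bulk libraries, whose unit (reads, pairs or fragments) is unstated. It also holds the authors' log2 fold changes per bin and their marks of control LAD and iLAD bins. The variant table holds deposited counts per DpnI fragment, and the RNA table holds estimated counts per gene, per the file headers. Build hg38 and the tools Trimmomatic 0.39, BWA 0.7.15-r1140, SAMtools 1.9, bedtools 2.28, Salmon, DESeq2 and limma are named in the submitters' processing notes, which give them no role.

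Counts of the variant table were summed to the same bins. Bulk and variant bins were fitted with edgeR 4.0.16 in R 4.3.3 (quasi-likelihood, TMM scaling, filterByExpr, Benjamini-Hochberg adjustment over all tested bins, threshold 0.05). Bulk used 27944 autosomal bins of 4 libraries, and the variants used 28733 bins of all 8 libraries, which share 1 estimate of the spread. The script was tested on simulated data. The authors' deposited log2 fold changes differed from the fit by a median of 0.046. RNA counts were rounded to whole numbers and scaled to library totals, and no RNA test was made. Genes were placed in bins by midpoint from RefSeq, and 989 of 1042 had an RNA entry (94.9%). The expected fragments of a cell came from the summed bulk DamV133A libraries. Intervals on shares of cells are exact Clopper-Pearson intervals at 95%, and the limit for a count of 0 is 3 counts of the total. No 2 libraries had identical values.

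Named bins were the 5 longest runs of each class, the 5 highest and lowest bulk bins, the LAD bins and extremes of the region, up to 5 interaction bins per direction by adjusted p, the 5 bins with most contact in each batch, and the bins of 13 gene lists. The members and lists were chosen with earlier results of these data known. Alternatives covered scaling, filter, test, replicate block, each library left out, covered fragments, the reference bins, the expected fragments, shallow cells, the contact threshold, thinning and the RNA level. Gene symbols ZBED9, OR12D1, OR1F12, DPCR1 and DEFB133 had no position and were not used here.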

Additional observations from a re-analysis of the deposited data

Results flagged for a closer look

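The effect of the lamin fusion differed between V133A and wild-type Dam, by a test of the difference itself, in 12 bins of chromosome 6 (edgeR interaction term, adjusted p from 0.0449 to 0.0491). Values are the log2 fold change of the fusion with V133A minus that with wild-type Dam. In the histone and MHC region it was -5.93 in the bin of MUC22 and -5.31 in the gene-free bin at 33800001. Elsewhere on the short arm it was -5.69 at 43800001, which holds no gene, -5.54 in the bin of NFYA, APOBEC2 and OARD1, -3.98 in that of BRPF3 and PNPLA1, -3.26 in that of PAK1IP1, TMEM14C and TMEM14B, and -2.82 in that of SERPINB6. On the long arm it was -3.49 at 169800001, with no gene, and -2.22 in the bin of REV3L.

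The opposite sign appeared in 3 LAD bins of the long arm, at 2.41 in the gene-free bin 67400001, 1.94 in the gene-free bin 102200001 and 1.71 in that of CENPW. With 4 libraries on each side of the difference, all 12 calls rested on 2 libraries per group, all 12 were lost without either DamV133A replicate, either DamWT replicate or DamWT-LMNB1 replicate 1, and 4 of the lower bins had 6 counts or fewer in each DamV133A-LMNB1 library. The bins at 33800001 and 43800001 and that of REV3L lay outside the rule for named bins and are given because the test called them.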

How the results depend on the processing

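Of the alternative values of the comparisons, 165 kept within the spread or on the same side, 70 moved and 5 reversed. Leaving out 1 library at a time gave 811 to 834 LAD and 307 to 472 iLAD bins in bulk, 524 to 719 higher and 171 to 366 lower bins with V133A, 0 to 165 higher and 0 to 41 lower with wild-type Dam, and 0 to 46 higher and 0 to 104 lower interaction bins. For wild-type Dam the calls were 298 higher and 47 lower by the DESeq2 test, 40 and 2 under its size factors, 0 and 0 when scaled by library totals, and 48 and 5 on covered fragments. Interaction calls numbered 212 higher and 103 lower by the DESeq2 test, 8 higher under its size factors, 22 lower when scaled by totals, and 55 higher and 31 lower on covered fragments. The untethered comparison gave 3 and 17 with the DESeq2 test and 1 lower on covered fragments. The cause of these changes was not tested.

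With the replicate number as a block, wild-type Dam gave 37 higher and 1 lower, the interaction 0 and 0, V133A 683 and 340 and bulk 844 and 470. Numbers did not pair the libraries: deviations of same-numbered libraries correlated at 0.011 in bulk and at -0.000043 to 0.032 in the variants.

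With iLAD bins outside the region as the reference, the shifts of the region reversed to 0.22 in bulk, 0.32 with V133A and 0.012 with wild-type Dam, and their difference to 0.30. In cells the contrast became 0.18 in batch 1, -0.042 in batch 2 and 0.13 in Dam-only cells, and 0.15 in Dam-only cells against the short arm. With contact at 2 times the expected fragments, shares per bin for the region, iLAD bins outside it and LAD bins were 4.96%, 2.81% and 35.0% in batch 1, 4.07%, 3.93% and 31.7% in batch 2, and 21.1%, 18.0% and 6.15% in Dam-only cells. Thinned to 10000 fragments, LAD bins were at 39.2% in batch 2 and 19.1% in Dam-only cells, where the region was at 38.6%. At 0.1 CPM the share of genes with RNA was 70.3% in LAD bins, 83.2% in iLAD bins, 70.5% in the region, 76.7% in its iLAD bins and 87.4% in iLAD bins elsewhere. Among named bins, 16 of the bulk, 50 of the V133A and 72 of the interaction alternatives lost a call, 4 and 18 gained one, and none reversed.

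Cells whose chromosome 6 fragments were under 0.5 of the expected number, 1 in each batch, were left out in an alternative chosen after seeing the data, which gave -1.51 in batch 1 and -1.27 in batch 2 for the region. The bulk libraries hold many more counts than the others, so their bin values carry the least counting error, while a cell's bin held few fragments. With 2 libraries per group no permutation test of a single value could pass 0.05.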
